A study of Mus musculus with 16 samples.

Results

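U4 and U5 are small nuclear RNAs (snRNAs) of the spliceosome, and the intervals described here are the 39 snRNA genes of U5-like to U4-like length among 1885 small RNA intervals counted in mouse blood cells. A member is a counted interval whose coordinates are exactly those of a GENCODE M21 gene of type snRNA (GRCm38) in the range of U5 to U4 lengths, leaving out Rnu11 and Rnu12. Of 145 annotated genes that fit, 39 were listed with at least 1 read. The listed members were 116 to 151 bases long. They were split by length into 17 shorter (U5-like) and 22 longer (U4-like) intervals, and the 2 intervals exactly at the split, Gm22710 and Gm22456, were put with the shorter ones.

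Cells came from mouse bone marrow and were sorted by flow cytometry with antibodies to lineage and progenitor surface markers. The genotype, strain, sex and age of the mice are not given in the sources used here. The 4 mature populations were T, B, Myeloid (Myloid in the labels) and Erythroid cells, and the 4 progenitor populations were the common lymphoid (CLP), common myeloid (CMP), granulocyte-monocyte (GMP) and megakaryocyte-erythroid (MEP) progenitors. Each population had 2 libraries, 16 in all, made from Trizol total RNA with a small RNA kit and cut from a gel by size. Whether both libraries of a population stem from separate mice is not given in the sources used here. The p values thus rest on spread between libraries that may be only technical.

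In the spliceosome, U4 is base-paired to U6 and joins U5 in the particle that completes the machine on an intron. U5 holds the ends of the exons to be joined through a conserved loop, and U4 leaves before catalysis. U4 and U5 each carry a short U-rich site on which a ring of Sm proteins is built. The mouse genome holds several U5 genes whose RNAs differ near the 3′ end, besides many copies of snRNA genes that are shorter or altered.

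Sequence showed that length alone did not sort the members into U4 and U5. By local alignment of the GENCODE M21 sequences, available for 17 shorter and 21 longer members, 11 matched Rnu5g, the only member with a gene symbol that names its family, and all 11 were shorter intervals. Of the 21 longer members 4, namely Gm24265, Gm24407, Gm25899 and Gm25179, held U4 letters, taken as TTGCTAATT (4 of 21, 19%, and 0 of 336 other snRNA intervals) or CCAATGAGG (3 of 21, 14.3%, and 1 of 336). Over both length classes 7 members aligned to Rnu2-10, a U2 gene, 7 to Rnu1a1 or another U1 gene, 3 to Rnu12, 1 to Rnu6, and 5 without U4 letters to none of these at the score used. The genes aligned to were Rnu5g, Rnu1a1, Rnu1b1, Rnu2-10, Rnu6, Rnu11 and Rnu12. Families without a gene among these, such as U4atac and U6atac, could not be matched, so the family of those 5 is left open. The letters ATTTTTG or ATTTTTTG, an Sm-like site, stood in 12 of 17 shorter members (70.6%), in 5 of 21 longer ones (23.8%) and in 19 of 336 other snRNA intervals (5.65%). On the opposite strand the U4 letters stood in 0 members and the Sm-like letters in 1 longer member. The label of U4 length is therefore kept here for length alone, and members are described by the sequence they carry.

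The 7 abundant intervals with U5 sequence together held most of the members' reads. Rnu5g (chr9:65201726-65201841, minus strand, GRCm38) lies within Parp16 on the opposite strand. Gm25313 (chr9:65196572-65196687, minus strand) lies 5038 bases from Rnu5g, also within Parp16. Gm24871 (chr1:171503048-171503163, minus strand) overlaps an exon of the noncoding gene B930036N10Rik on the same strand, and whether counting used strand is not given in the sources used here. Gm25099 (chr4:117189942-117190057), Gm23143 (chr4:117202528-117202643) and Gm23287 (chr4:117210844-117210959) follow each other on the plus strand of chromosome 4, with 12470 and 8200 bases between them and no annotated host gene. Gm22265 (chr1:192745571-192745686, plus strand) lies within Hhat on the opposite strand.

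Apart from Gm22265, these intervals were identical over their first 70 bases, and all 7 over the first 26. In Gm25313 the 3 differences lie at positions 105 to 109, counted from the 5′ end, behind the Sm-like site. Gm25313 is 97.4% identical to Rnu5g, and the others are 91.4% to 94.8% identical to it. A read that covers only the shared stretch cannot be assigned to 1 of these genes, and how the authors' counting treated such reads is not given in the sources used here.

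The intervals Gm24265 (chr5:115489459-115489599) and Gm24407 (chr5:115490254-115490394) are shown as the members with U4 sequence and reads enough to test. They lie on the plus strand of chromosome 5 with 654 bases between them, are 98.6% identical and differ by G88A and C99A (the base of Gm24265 first, positions from its 5′ end). Capitals mark the U4 letters and the Sm-like site, in that order.
Gm24265: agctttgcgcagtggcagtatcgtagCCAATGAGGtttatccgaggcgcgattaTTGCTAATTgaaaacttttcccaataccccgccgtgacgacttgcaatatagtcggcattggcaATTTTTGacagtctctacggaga
Gm24407: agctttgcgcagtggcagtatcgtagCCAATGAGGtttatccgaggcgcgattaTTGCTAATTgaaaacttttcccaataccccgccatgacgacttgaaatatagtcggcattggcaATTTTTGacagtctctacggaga

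The intervals Gm23744 (chr1:155954574-155954722, plus strand, within Cep350 on the opposite strand) and Gm25106 (chr11:98473675-98473808, minus strand, within Ikzf3 on the same strand) are shown because they were the most abundant longer members and had the smallest p values over the populations. Capitals mark the stretch that aligned to Rnu2-10, the U2 snRNA that pairs with the branch point. In Gm23744 it is the first 77 bases, all of them matched, and in Gm25106 it runs from base 6 to base 106, with 97 bases matched.
Gm23744: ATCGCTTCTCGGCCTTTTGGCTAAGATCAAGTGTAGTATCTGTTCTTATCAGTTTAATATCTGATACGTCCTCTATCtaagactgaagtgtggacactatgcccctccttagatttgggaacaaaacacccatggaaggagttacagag
Gm25106: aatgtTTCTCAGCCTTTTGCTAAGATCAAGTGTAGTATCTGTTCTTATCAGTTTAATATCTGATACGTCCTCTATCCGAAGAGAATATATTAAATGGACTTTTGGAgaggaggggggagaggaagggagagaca

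The libraries held 8197458 to 41799906 counts, and the members made up 0.0235% (T library 2) to 0.081% (GMP library 2) of them. Between 89.0% and 93.2% of the listed counts were even numbers, and whether both mates of a pair were counted is not given in the sources used here. Levels are given as TMM-scaled CPM, counts divided by library sizes that were scaled by the trimmed mean of M values (TMM). By Spearman correlation over the tested intervals the nearest library was the replicate for T, B, Myeloid, CLP and CMP, but a library of another population for each GMP, MEP and Erythroid library. Of the marker miRNAs listed for the labels, the lymphoid Mir150 stood at 272 ± 18.2 CPM in T and 81.8 ± 10.4 in B, with at most 38.5 in the other populations (means ± SD, n = 2). Mir342, also lymphoid, was high in T (63.69 ± 1.688 CPM) but no higher in B (16.16 ± 3.906) than in Myeloid (18.2 ± 2.041). Of the miRNAs listed for B and T, Mir155 was highest in T (12.35 CPM) and B (5.836). Mir181a-1 was highest in T (106.3 CPM), but lower in B (55.12) than in Myeloid (63.83) and CMP (56.28). Mir181b-1 was highest in CMP (16.95 CPM), above B (12.99) and T (12.64). Mir223 was highest in Myeloid (921 ± 36.3 CPM, at most 443 elsewhere). The progenitor marker Mir99a was high in CMP (16.44 ± 0.8645 CPM) but at 3.903 to 5.2 CPM in CLP, GMP and MEP, beside 2.005 to 4.646 CPM in mature populations. The progenitor markers thus did not set CLP, GMP or MEP apart. Erythroid was not set apart from these either, since Mir451a, a miRNA of red cells, had 146.8 ± 46.95 CPM in Erythroid, 127 ± 6.47 in CLP and 152 ± 39.7 in MEP.

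Of the 39 members, 18 passed the filter on low counts, 8 shorter and 10 longer, and 21 did not. The 7 U5-sequence intervals that passed held 61808 counts for Rnu5g, 65608 for Gm25313, 16767 for Gm24871, 12479 for Gm25099, 3910 for Gm23143, 1261 for Gm23287 and 1214 for Gm22265 over the 16 libraries. All 11 U5-sequence intervals together had 163141 counts, the 4 with U4 letters 5897, the 7 that aligned to Rnu2-10 15603 and the 3 that aligned to Rnu12 2729. The 21 intervals below the filter had 2 to 64 counts each and 430 in all, and 4 of them had reads in 1 library alone. Among those 21 were 4 with U5 sequence and 2 with U4 letters. Of the 2 intervals at the length split, Gm22710 had 706 counts and Gm22456 had 10.

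Per 100 bases of length, Rnu5g averaged 168 CPM over the 16 libraries, against 131 for Rnu2-10, 123 for Rnu12 and 39.5 for the U1 gene Rnu1a1. The 11 U5-sequence intervals summed averaged 439 CPM per 100 bases, a sum that is not comparable with those single genes. As sums not divided by length, U5-sequence intervals had 257 to 622 CPM in single libraries. U2-length intervals had 1155 to 2561 CPM and U1-length intervals 391 to 967 CPM. Per 100 bases the U4-sequence intervals were far lower than Rnu5g, at 7.15 CPM for Gm24265 and 5.76 for Gm24407. Summed per 100 bases, intervals with U5 sequence stood at 19.7 and 22.6 times those with U4 letters in the T libraries and at 27.5 to 44.2 times in the other 14. Both T libraries thus lay below all others in this ratio. RNAs of different lengths passed the same gel selection, and the part of length in this ratio was not tested.

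Among the 7 U5-sequence intervals, Gm25313 and Rnu5g gave most of the summed level in each population. Gm25313 held 37.1% to 42.4% of it in single libraries and Rnu5g 33.7% to 42.4%. Gm24871 held 8.40% to 13.7%, Gm25099 5.74% to 9.06% and Gm23143 1.69% to 2.81%, while Gm23287 and Gm22265 held 1.31% and 1.12% at most. The ratio of Rnu5g to Gm25313 was 1.02 ± 0.00382 in Erythroid and 1.06 ± 0.0386 in B, 0.955 ± 0.00381 in T and 0.816 ± 0.0323 in Myeloid. Among the progenitors it was 1.12 ± 0.0107 in MEP, 0.931 ± 0.0229 in CMP, 0.895 ± 0.0248 in CLP and 0.889 ± 0.0630 in GMP. Rnu5g was thus the higher of the pair in B, Erythroid and MEP, and Gm25313 in the others.

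U5-sequence intervals were lowest in T cells. Summed over the 11 intervals they had 257 and 259 TMM-scaled CPM in the T libraries and 450 to 622 in the other 14, so the groups did not overlap. As a share of the CPM of all snRNA intervals they had 11.93% and 11.73% in the T libraries and 11.91% to 19.64% in the other 14, so in this share T overlapped Myeloid (12.52% and 11.91%). Rnu5g had 96.65 and 97.7 CPM in the T libraries, against 246.5 and 222.7 in the B libraries. The other mature libraries had 185.2 and 174.4 CPM of Rnu5g (Myeloid) and 215.4 and 201.2 (Erythroid). Among progenitors the values were 172 ± 2.41 CPM for CLP (mean ± SD, n = 2), 229.7 and 221 for CMP, 206.2 and 233.4 for GMP, and 213.2 and 224.3 for MEP. Its means ran B, CMP, GMP, MEP, Erythroid, Myeloid, CLP and T from high to low, and the libraries of neighbours overlapped from B down to Erythroid but not from Erythroid down to T.

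Gm25313, the closest copy of Rnu5g, showed the same gap. It had 100.9 and 102.6 CPM in the T libraries and 226.3 and 215.3 in the B libraries. Myeloid libraries had 220.8 and 220 CPM of it and Erythroid libraries 211.5 and 196.4. Progenitor values were 198.3 and 187 CPM for CLP, 242.6 and 241.7 for CMP, 244.3 and 250.2 for GMP, and 191.9 and 199.1 for MEP. Both T libraries lay below the 14 others for each of the 7 abundant U5-sequence intervals. The same held for Gm24265, with U4 letters, and for Gm23502, which aligns to Rnu12, so 9 of the 18 tested members showed it, beside 15.6% of all 749 tested intervals. Both T libraries were also the lowest in the summed CPM of U1-length intervals (391.2 and 424.1 in T, at least 473.3 in the others), of U2-length intervals (1158 and 1155, at least 1245) and of all snRNA intervals (2157 and 2210, at least 3009), but not of U6-length intervals (18.4 and 21.41 in T, 20.04 and 19.08 in B). In bulk samples of sorted cells, less of an RNA per cell and fewer cells that make it cannot be told apart.

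**Figure D1:**
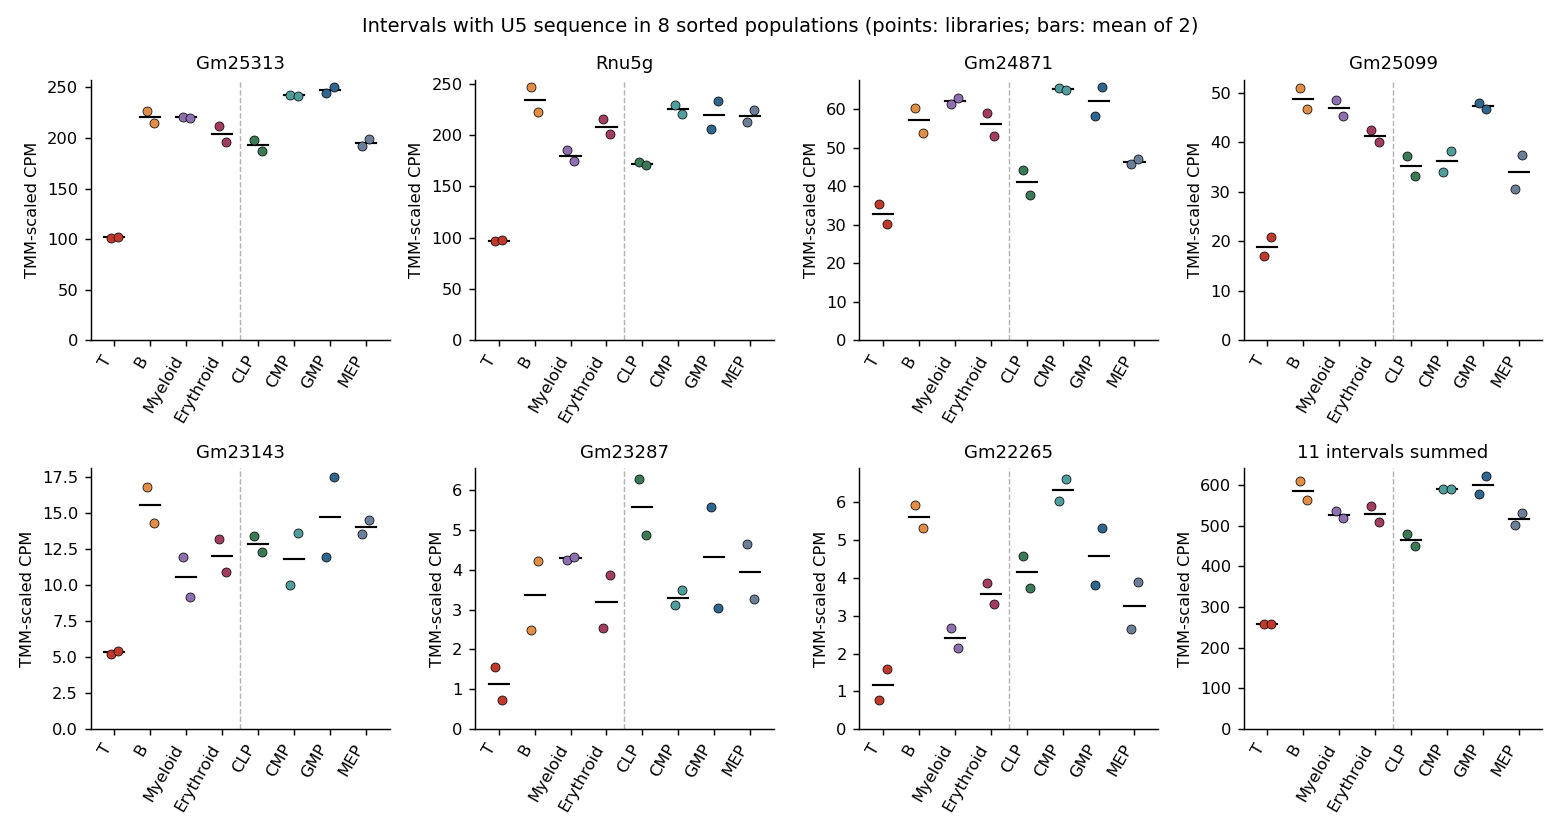
TMM-scaled CPM of the 7 abundant U5-sequence intervals and of all 11 summed, by population, with mature populations left and progenitors right of the dashed line. Points are libraries and bars are means of 2. In each panel both T points lie below the points of the other 7 populations.

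Whether a member varied over the 8 populations was tested by quasi-likelihood in edgeR, with p values adjusted after Benjamini and Hochberg over the 749 tested intervals. A result is called at an adjusted p under 0.05. Of the 18 tested members 11 were called, a share equal to the 61.1% of all tested intervals that were called. They were the 7 U5-sequence intervals, Gm23744, Gm25106, Gm23502 and Gm24525. The smallest adjusted p values by edgeR were those of Gm25106 (8.21e-07), Gm23744 (1.19e-06) and Gm25313 (1.72e-06), then Rnu5g (6.00e-06). Gm24265 (adjusted p = 0.411 by edgeR) and Gm24407 (0.495) were not called, and the 2 U4-sequence intervals had means of 8.38 to 11.8 CPM and 6.53 to 9.18 CPM over the populations. Without the T libraries, an alternative chosen after seeing the data, 8 members were called, among them Rnu5g (adjusted p = 0.00834 by edgeR) and Gm25313 (0.00539) but neither Gm23143 (0.330), Gm23287 (0.396) nor Gm23502 (0.316). Of all 759 intervals tested in that fit, 387 were called.

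T cells were set against B cells, the other mature lymphoid population. Of the 18 tested members 7 were lower in T than in B and 1 was higher, beside 18.7% lower and 9.48% higher of all tested intervals. The 7 lower ones were the U5-sequence intervals, with a median log2 fold change of -1.36 over these 7, beside -0.06 over all tested intervals. Rnu5g was lower by -1.27 ± 0.0884 (log2 fold change T over B ± SE, adjusted p = 2.88e-06 by edgeR), or 2.41-fold, and Gm25313 by -1.12 ± 0.0724 (adjusted p = 2.26e-06 by edgeR), or 2.17-fold. The largest fall was that of Gm22265, with 0.775 and 1.58 CPM in T and 5.93 and 5.32 CPM in B, at -2.22 ± 0.347 (adjusted p = 0.000649 by edgeR). These levels rest on 8 and 22 counts in T and 100 and 68 counts in B.

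The 3 U5-sequence intervals clustered on chromosome 4 were lower in T than in B, as were the abundant U5-sequence intervals on other chromosomes. How reads on their shared first bases were assigned is not known, so these intervals are not independent measures of the fall. Gm25099 had 17.0 and 20.8 CPM in T against 51.0 and 46.7 CPM in B, a log2 fold change of -1.36 ± 0.146. Gm23143 had 5.23 and 5.46 CPM in T against 16.8 and 14.3 CPM in B (-1.54 ± 0.238), and Gm23287 had 1.55 and 0.718 CPM in T against 2.49 and 4.22 CPM in B (-1.59 ± 0.461). The last rests on 16 and 10 counts in T and was not called without T library 2 (adjusted p = 0.187 by edgeR) or without B library 2 (0.122). The smallest fall among the 7 was that of Gm24871, with 35.2 and 30.3 CPM in T, against 60.4 and 53.9 CPM in B, at -0.80 ± 0.126 (adjusted p = 0.000661 by edgeR).

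The U4-sequence intervals did not pass the test between T and B. Gm24265 had 8.72 and 8.05 CPM in T against 9.25 and 11.4 CPM in B, a log2 fold change of -0.30 ± 0.185 (adjusted p = 0.252 by edgeR). Gm24407 had 7.17 and 5.89 CPM in T against 9.01 and 7.04 CPM in B, at -0.30 ± 0.239 (adjusted p = 0.372 by edgeR). With library sizes from the other snRNA intervals they stood at 0.20 (Gm24265) and 0.19 (Gm24407), again not called. Gm23502, the Rnu12-like interval, was at -0.60 ± 0.234 (adjusted p = 0.0813 by edgeR). The 1 member higher in T was Gm23744, with 14.5 and 17.7 CPM in T against 11.03 and 9.85 CPM in B (0.63 ± 0.169, adjusted p = 0.0172 by edgeR). That call was lost when any of 7 libraries was left out, namely T library 1 or 2, B library 2, CLP library 2, CMP library 1, Myeloid library 1 and Erythroid library 1.

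**Figure D2:**
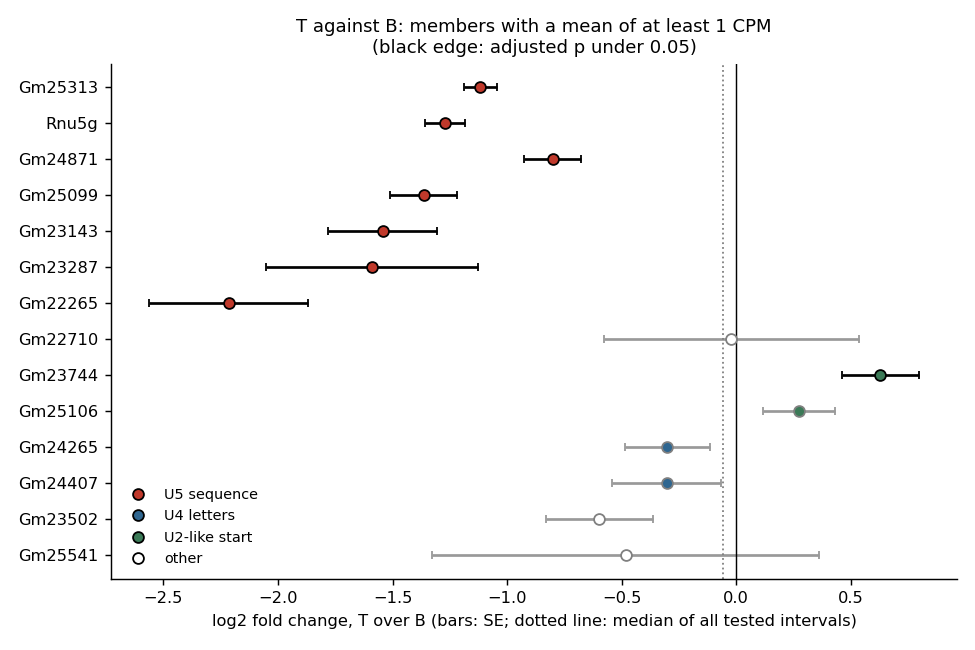
Points give the log2 fold change of T over B, with SE bars, for the 14 tested members that averaged 1 CPM or more, coloured by sequence family, with called ones edged in black. The U5-sequence intervals lie between -2.22 and -0.80, left of the U4-sequence intervals at -0.30 and of the dotted median of all tested intervals at -0.06.

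Some other snRNAs were also lower in T than in B. Of the 23 tested intervals of U1 length 9 were lower and 0 higher, with a median of -0.24. Of 17 of U2 length 7 were lower and 0 higher, with a median of -0.42, and of 56 of U6 length 3 were lower and 0 higher, with a median of -0.19. Rnu12, of the minor spliceosome, was at -0.71 ± 0.0880 and Rnu1a1 at -0.74 ± 0.124, while Rnu2-10 was at -0.22 ± 0.0834 (adjusted p = 0.0683 by edgeR). All snRNA intervals summed had 2183 ± 37.0 CPM in T and 3280 ± 20.8 CPM in B. To set the members against other snRNAs, library sizes were also taken from the other snRNA intervals, which put the median of all tested intervals at 0.43 in place of -0.06 and 210 intervals higher and 42 lower in place of 71 and 140. Rnu5g was then at -0.78 (adjusted p = 0.000162 by edgeR), Gm25313 at -0.62 (7.22e-05), Gm25099 at -0.87 (0.000635), Gm23143 at -1.05 (0.00812) and Gm22265 at -1.73 (0.00354), all still lower in T, while Gm24871 (-0.30, adjusted p = 0.101 by edgeR) and Gm23287 (-1.09, 0.0887) were not called. On that scale 3 members were higher in T, Gm23744 at 1.12, Gm25106 at 0.77 and Gm24525, which rests on 0 and 6 counts in T and 0 in both B libraries.

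Mature populations were set against progenitors, 4 against 4. Of the 18 tested members 9 were lower in mature populations and 0 higher (0 also at an unadjusted p under 0.05 and by DESeq2), beside 26.7% lower and 23.1% higher of all tested intervals. The 9 were Gm25313, Rnu5g, Gm23143, Gm23287 and Gm22265 with U5 sequence, Gm23744 and Gm25106 with U2-like sequence, and Gm25541 and Gm24525. A one-sided fall was not particular to the members, since 38 of the 100 other tested snRNA intervals were lower and 1 was higher. Their median log2 fold change was -0.56, beside -0.29 over the 18 members. Rnu5g had 96.65 CPM as the lowest, 193 as the median and 246.5 as the highest of 8 mature libraries, against 170.6, 217 and 233.4 of 8 progenitor libraries. It was at -0.28 ± 0.0434 (adjusted p = 0.000238 by edgeR) and Gm25313 at -0.29 ± 0.0357 (adjusted p = 4.29e-05 by edgeR). For both, mature and progenitor libraries overlapped. The call of Gm23143 (-0.40) was lost without CLP library 1 (adjusted p = 0.105 by edgeR) or T library 2 (0.0907), and that of Gm23287 (-0.66) without CLP library 1, CMP library 2, B library 1 or T library 2. With library sizes from the other snRNA intervals Rnu5g was at -0.12 (adjusted p = 0.0645 by edgeR).

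The U5-sequence values depended on the T libraries. With them left out, an alternative chosen after seeing the data, Rnu5g was at -0.01 (adjusted p = 0.888 by edgeR) and Gm25313 at -0.02 (0.696). Gm23143 was then at -0.09, Gm23287 at -0.23 and Gm22265 at -0.29, none of them called, and Gm25099 was higher in mature populations at 0.27 (adjusted p = 0.0113 by edgeR). The 6 remaining mature libraries had 40.1 to 51.0 CPM of Gm25099, against 30.65 to 47.9 CPM in the 8 progenitor libraries. Without T the members called lower were 4, Gm23744 (-0.38), Gm25106 (-0.39), Gm25541 (-1.01) and Gm24525. Of all 759 intervals tested in that fit, 151 were lower and 151 higher. When counts were summed per population, which leaves 4 against 4, 0 of the 9 passed (adjusted p 0.195 to 0.709 by edgeR).

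**Figure D3:**
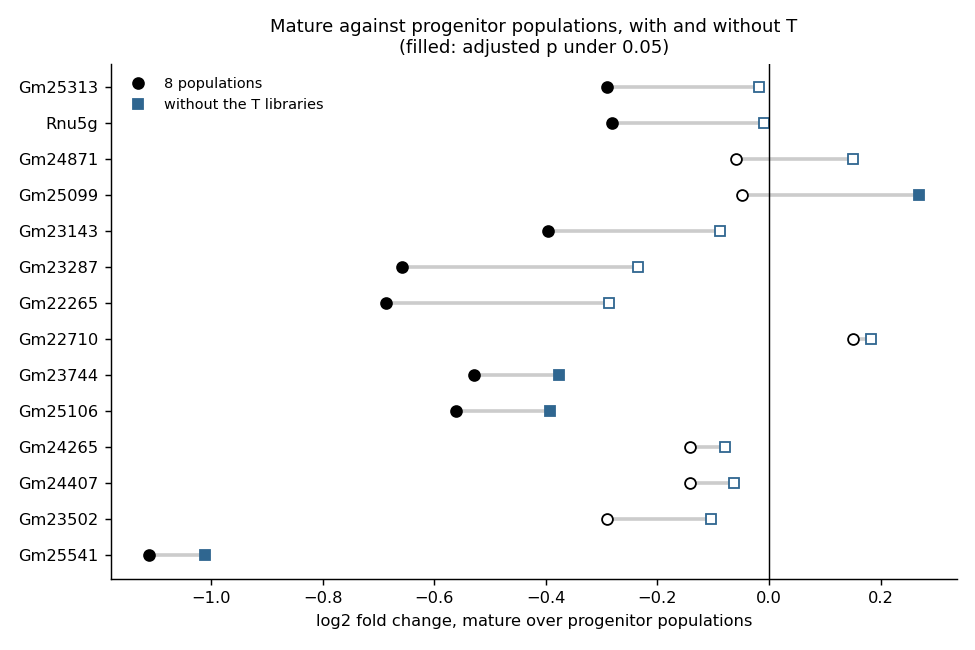
Circles give the log2 fold change of mature over progenitor populations for the 14 tested members that averaged 1 CPM or more, and squares the same without the T libraries, with filled symbols for called values. Rnu5g and Gm25313 move from -0.28 and -0.29 to -0.01 and -0.02, and Gm23744 and Gm25106 stay called.

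The longer members with the most reads, Gm23744 and Gm25106, were highest in GMP and lowest in B. Gm23744 had 16.1 ± 2.27 CPM in T, 10.4 ± 0.831 in B, 29.1 ± 1.18 in Myeloid and 48.6 ± 3.23 in Erythroid cells (mean ± SD, n = 2). Among progenitors it had 40.7 ± 0.869 CPM in CLP, 13.2 ± 0.343 in CMP, 64.7 ± 5.80 in GMP and 29.9 ± 6.70 in MEP. Gm25106 had 7.07 ± 0.140 CPM in T, 5.86 ± 0.566 in B, 10.9 ± 1.58 in Myeloid and 22.1 ± 2.13 in Erythroid cells. For progenitors it had 20.4 ± 0.110 CPM in CLP, 6.14 ± 0.444 in CMP, 28.4 ± 0.959 in GMP and 13.4 ± 0.182 in MEP. For both the means ran GMP, Erythroid, CLP, MEP, Myeloid, T, CMP and B from high to low, so CMP lay with B and T although it is a progenitor. These ends of the order were not particular to them. Rnu2-10 was also highest in GMP (344.3 CPM) and lowest in CMP (164), T (182.6) and B (213.4). Summed U2-length intervals were highest in GMP (2461 CPM) and lowest in T (1157), CMP (1256) and B (1480). Between these ends the order differed.

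The level of Gm23744 was also set beside that of Rnu2-10, with which it shares its first 77 bases. The ratio of Gm23744 to Rnu2-10 was 0.0882 ± 0.00931 in T and 0.0489 ± 0.000443 in B, 0.0976 ± 0.00178 in Myeloid and 0.181 ± 0.0236 in Erythroid cells. In the progenitors it was 0.170 ± 0.00545 in CLP, 0.0802 ± 6.72e-05 in CMP, 0.188 ± 0.00530 in GMP and 0.102 ± 0.0244 in MEP. Whether fragments of U2 RNA were counted on either interval was not tested.

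**Figure D4:**
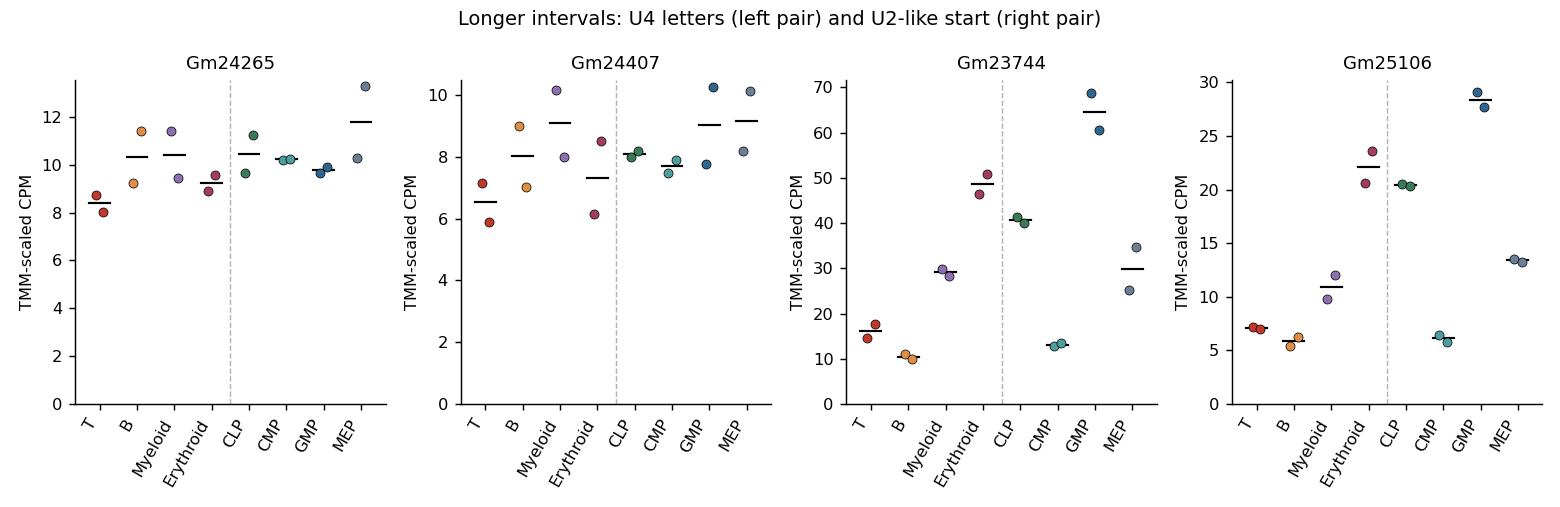
TMM-scaled CPM of the U4-sequence intervals Gm24265 and Gm24407 and of Gm23744 and Gm25106, by population, with mature populations left and progenitors right of the dashed line. Points are libraries and bars are means of 2. Gm24265 and Gm24407 stay within 5.89 to 13.3 CPM, while Gm23744 runs from 9.85 in B to 68.8 in GMP.

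In the lymphoid branch, B and T together were set against CLP, their progenitor. Of the 18 tested members 5 were lower and 0 higher in B and T (0 also at an unadjusted p under 0.05 and by DESeq2), beside 25.2% lower and 18% higher of all tested intervals. Other snRNAs fell more often, with 58 of 100 tested intervals lower and 0 higher. Their median log2 fold change was -1.43, beside -0.48 over the 18 members. Gm25106 was at -1.66 ± 0.124 (adjusted p = 8.93e-07 by edgeR) and Gm23744 at -1.65 ± 0.137 (2.27e-06), and for both every B and T library lay below both CLP libraries. The share of all tested intervals with such a gap was not counted. Gm23287 was lower by -1.53 ± 0.342 (adjusted p = 0.00393 by edgeR), with 1.55 and 0.718 CPM in T and 2.49 and 4.22 CPM in B, against 6.27 and 4.86 CPM in CLP. Gm24525, an Rnu12-like interval, had 0 and 6 counts in T and 0 in both B libraries, against 16 and 21 counts in CLP. A count of 0 allows up to 3 counts, or 0.291 CPM in T library 1 and 0.178 and 0.235 CPM in the B libraries, by counting error alone. The calls of Gm23287 (adjusted p = 0.0536 by edgeR) and Gm24525 (0.0627) were lost without CLP library 1.

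Gm25313 was also called lower in B and T than in CLP, at -0.36 ± 0.0610 (adjusted p = 0.000571 by edgeR), but B and T lay on opposite sides of CLP. Its T libraries lay below both CLP libraries and its B libraries, at 226.3 and 215.3 CPM, above them. With library sizes from the other snRNA intervals it was at 0.10 (adjusted p = 0.221 by edgeR), where 2 members were higher (Rnu5g at 0.27, Gm24871 at 0.54) and 4 lower in B and T, and it was not called without CLP library 1 (-0.23, adjusted p = 0.216) or T library 2 (-0.27, adjusted p = 0.0724). Rnu5g was at -0.19 ± 0.0747 (adjusted p = 0.0596 by edgeR). Of all 749 tested intervals, 246 were higher and 106 lower with library sizes from the other snRNA intervals. With library totals in place of TMM 14 members were lower, and the median of all tested intervals was -0.58 in place of -0.13. Of all 749 tested intervals, 312 were then lower, in place of 189. Without the GMP, MEP and Erythroid libraries, chosen after seeing the data, 11 members were lower, beside 237 of all 719 intervals tested in that fit.

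In the granulocyte-monocyte branch Myeloid cells were set against GMP. Of the 18 tested members 4 were lower in Myeloid and 0 higher (1 at an unadjusted p under 0.05 and 0 by DESeq2), beside 16.3% lower and 15.5% higher of all tested intervals. Gm25106 had 9.83 and 12.1 CPM in Myeloid against 29.1 and 27.7 CPM in GMP, at -1.37 ± 0.148 (adjusted p = 8.18e-05 by edgeR). Gm23744 had 29.9 and 28.3 CPM in Myeloid against 68.8 and 60.6 CPM in GMP, at -1.15 ± 0.164 (0.000467). Rnu5g was lower by -0.29 ± 0.0868 (adjusted p = 0.0265 by edgeR) and Gm22265 by -0.93 ± 0.310 (0.04025). Rnu5g lost its call in 11 of 16 fits that left out 1 library, namely either library of GMP, Myeloid, CLP, B or T or CMP library 1. Gm22265 lost its call in 9, namely those without either library of GMP, Myeloid, CLP or CMP or without B library 1. Gm22265 was also not called with the replicate number as a block (adjusted p = 0.0515 by edgeR). The U4-sequence intervals stood at 0.09 ± 0.181 (Gm24265) and 0.01 ± 0.231 (Gm24407).

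In the erythroid branch Erythroid cells were set against MEP. Here 2 of the 18 tested members were higher and 0 lower (1 at an unadjusted p under 0.05 and 0 by DESeq2), beside 4.41% higher and 5.47% lower of all tested intervals. Gm25106 had 20.6 and 23.6 CPM in Erythroid against 13.5 and 13.3 CPM in MEP, at 0.72 ± 0.147 (adjusted p = 0.00912 by edgeR). Gm23744 had 46.4 and 50.9 CPM in Erythroid against 25.2 and 34.7 CPM in MEP, at 0.70 ± 0.163 (adjusted p = 0.0177 by edgeR). For both the 2 Erythroid libraries lay above the 2 MEP libraries, and the share of all tested intervals with such a gap was not counted. The call of Gm25106 was lost without MEP library 2 or without Erythroid library 2 (both adjusted p = 0.0769 by edgeR). Gm23744 was not called without MEP library 1 (adjusted p = 0.0756 by edgeR), Erythroid library 1 (0.0656) or 2 (0.0829), CLP library 2 (0.0622), CMP library 1 (0.0564) or Myeloid library 1 (0.0555). Rnu5g was at -0.07 ± 0.0868 and Gm25313 at 0.06 ± 0.0713.

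The branches were then compared with each other by the difference of their fold changes. The lymphoid change (B and T over CLP) was more negative than the erythroid change (Erythroid over MEP) for 3 members and less negative for 0 (0 also at an unadjusted p under 0.05 and by DESeq2), beside 11.9% and 9.48% of all tested intervals. Of the 100 other tested snRNA intervals, 31 were called more negative and 0 less negative. Their median difference was -1.29, beside -0.34 over the 18 members. The difference was -2.39 ± 0.194 for Gm25106 (adjusted p = 1.43e-05 by edgeR), -2.35 ± 0.215 for Gm23744 (2.41e-05) and -0.42 ± 0.0941 for Gm25313 (0.00767). The call of Gm25313 was lost with library sizes from the other snRNA intervals (-0.04, adjusted p = 0.821 by edgeR), DESeq2 size factors, no low-count filter or similar copies summed, and without CLP library 1, T library 2 or Erythroid library 1. Between the lymphoid and the granulocyte-monocyte branch (Myeloid over GMP) 0 members differed by edgeR, 2 at an unadjusted p under 0.05 and 0 by DESeq2, beside 17.9% of all tested intervals called. Gm23744 stood at -0.49 ± 0.214 in that test (adjusted p = 0.140 by edgeR) and Gm25106 at -0.29 ± 0.194 (0.338). With library totals, which put the median of all tested intervals at -0.79 in place of -0.26, 8 members were called lower in it, and with library sizes from the other snRNA intervals 2 were called higher. Of all 749 tested intervals, 242 were lower with library totals, and 156 were higher with library sizes from the other snRNA intervals.

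The remaining tested members were scarce. Gm22710 averaged 2.135 CPM and Gm25541 1.05 CPM, and neither aligned at the score used to the named snRNAs tried. No U4atac or U6atac sequence was among those, so a match to these was not tested. Gm25541 was lower in mature populations than in progenitors by -1.11 ± 0.375 (adjusted p = 0.0287 by edgeR), a call that was lost when any of 7 libraries was left out (T library 2, B library 1 or 2, CLP library 2, CMP library 1 or 2, MEP library 2). Gm24525 had 6 counts over the T and B libraries and 8 to 22 counts in each other library, and was also called lower in mature populations (adjusted p = 0.00285 by edgeR). Gm22451, Gm22220 and the 149-base interval on an unplaced scaffold (ENSMUSG00000084520) had 76 to 206 counts in all and were called in 0 of the 8 tests.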

How the data were processed

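Sequencing libraries of size-selected small RNA from 8 sorted bone marrow populations, 2 libraries each, were deposited as raw read counts per annotated small RNA interval, and each deposited table lists only intervals with reads. Reads were trimmed with Trimmomatic 0.38 and aligned with Bowtie2 2.3.4.1 to GRCm38, per the submitters' processing notes. The counting program, its strand setting and its treatment of reads that match several places are not given in the sources used here.

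Intervals were matched to GENCODE M21 genes by exact coordinates, and an interval not listed in a library was taken as 0. Counts were fitted with edgeR 4.0.16 in R 4.3.3 (quasi-likelihood test, TMM scaling, 1 mean per population, 8 residual degrees of freedom) over the 749 of 1885 intervals that passed filterByExpr with a minimum count of 10. P values were adjusted by Benjamini-Hochberg over all 749, with a threshold of 0.05, and the standard error was the log2 fold change divided by the root of F. Sequences were the GENCODE M21 transcripts, compared with edlib 1.3.9.post1 and Biopython 1.88 (local alignment with match 1, mismatch -2, gap opening -3 and extension -1, and a score of at least 40 for a family match), and 35 of the 39 members had a RefSeq gene at their place. Alternatives were other scalings, DESeq2 1.42.0, other filters, counts halved, copies at 95% identity summed, a replicate block, populations as units and each library left out.

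The members and lists were chosen with earlier results of these data known. Members named with values were the 8 most abundant of each length class, the 3 with the smallest p over populations in each class, the 3 largest called changes in each direction per comparison, and Rnu5g. Depth was 8197458 to 41799906 counts per library, which gives floors of 0.0651 to 0.312 CPM for 3 counts, counting error only. The sequences of the U5-sequence intervals are not reported here.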

Additional observations from a re-analysis of the deposited data

Results flagged for a closer look

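The stage change of 3 members differed between branches by a test of the difference itself, the lymphoid change (B and T over CLP) minus the erythroid change (Erythroid over MEP). This was not particular to the members, since 31 of the 100 other tested snRNA intervals were called in the same direction and 0 in the other. The difference on the log2 scale was -2.39 for Gm25106 (adjusted p = 1.43e-05 by edgeR), where the lymphoid change was -1.66 and the erythroid change 0.72. It was -2.35 for Gm23744 (adjusted p = 2.41e-05 by edgeR), where the lymphoid change was -1.65 and the erythroid change 0.70. It was -0.42 for Gm25313 (adjusted p = 0.00767 by edgeR), where the lymphoid change was -0.36 and the erythroid change 0.06. The Erythroid and MEP libraries are among those whose nearest library was not their replicate, and the part of this in the 3 values was not tested. The difference of Gm25313 was not called with DESeq2 size factors (adjusted p = 0.0987 by edgeR), with library sizes from the other snRNA intervals (0.821), without the low-count filter (0.297), with similar copies summed (0.0574), or without CLP library 1 (0.225), T library 2 (0.104) or Erythroid library 1 (0.0760).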

How the results depend on the processing

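Of 31 called member results with a direction, 11 stayed called in the same direction under all planned settings in which they were tested. Not each result was tested in each setting. At a mean of at least 10 CPM 22 of the 31 were tested, and summing copies merged some members. The call was lost by 13 in at least 1 fit without a library and by 18 under another of these settings. The 1 that reversed was Gm25313 in B and T against CLP (0.10 with library sizes from the other snRNA intervals). Causes were not tested. With library totals the members lower were 14 by stage (9 as reported), 14 in B and T against CLP (5 as reported), 2 in Myeloid against GMP (4 as reported), and 8 in each branch difference (as reported, 0 for granulocyte-monocyte, 3 for erythroid). Of all 749 tested intervals, 309 were then lower by stage, 312 in B and T against CLP and 108 in Myeloid against GMP. The branch differences had 242 (granulocyte-monocyte) and 186 (erythroid) lower. With library sizes from the other snRNA intervals 5 were lower by stage, and 2 were higher in B and T against CLP (0 as reported), 3 in T against B (1 as reported) and 2 in the granulocyte-monocyte branch difference (0 as reported). Of all 749 tested intervals, 136 were then lower by stage. Higher ones were 246 in B and T against CLP, 210 in T against B and 156 in that branch difference. At a mean of at least 10 CPM, where fewer features were tested, 7 members varied over populations (11 as reported), 5 were lower by stage and 3 in B and T against CLP. Without the filter 2 were lower in Myeloid against GMP, 0 higher in Erythroid against MEP (2 as reported, 1 with DESeq2 size factors), 0 higher in T against B (2 by DESeq2) and 1 lower in the granulocyte-monocyte branch difference. Populations as units left 0 lower by stage. Of the alternatives chosen after seeing the data, leaving out T gave 4 lower and 1 higher by stage, beside 151 lower and 151 higher of 759 tested intervals. Leaving out GMP, MEP and Erythroid gave 11 lower in B and T against CLP, beside 237 of 719 tested intervals.

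Without 1 library at a time, 8 to 11 members varied over populations, 6 to 10 were lower by stage, 2 to 9 in B and T against CLP, 2 to 4 (and 0 to 1 higher) in Myeloid against GMP, 0 to 2 higher in Erythroid against MEP, 6 to 7 lower (and 0 to 1 higher) in T against B, and 0 to 1 and 2 to 4 lower in the granulocyte-monocyte and erythroid branch differences. The summed level of shorter members was at -0.25 by stage (-0.48 with library totals, -0.090 with other snRNA, -0.30 to -0.15 without 1 library) and at -1.17 in T against B (-1.24, -0.68, -1.37 to -1.03). That of longer members was at -0.41 by stage (-0.64, -0.25, -0.46 to -0.32) and at 0.05 in T against B (0.54 with other snRNA), where it ran from -0.12 to 0.11 without 1 library and turned negative in 6 of these 16 fits.

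The replicate numbers did not pair the libraries: deviations of same-numbered libraries correlated at -0.64 to 0.489 over 28 pairs of populations, 8 of them above 0.1. Spread between the 2 libraries differed by population. The SD of their log2 ratio, for intervals at 10 CPM, was 0.6051 in Erythroid, 0.5488 in GMP and 0.6365 in MEP. In the other populations it was 0.1182 to 0.1993. The fit took 1 estimate of spread over all populations. With the replicate block 10 members varied over populations (11 as reported), and of the calls with a direction 1 was lost, Gm22265 in Myeloid against GMP (-0.93, adjusted p = 0.0515 by edgeR). Members below the filter had at most 64 counts over 16 libraries, too few to test.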
